A study of Homo sapiens with 12 samples.

Results

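Transcripts of 10 amino acid transporter genes were followed in HK-2 cells exposed to 2,8-dihydroxyadenine (DHA), a purine of low solubility whose crystals damage the kidney in people who lack the enzyme APRT. The genes were SLC7A5, SLC3A2, SLC7A11, SLC7A1, SLC7A6, SLC1A4, SLC1A5, SLC38A1, SLC38A2 and SLC43A1, 10 of the 57527 genes that had at least 1 matched transcript. They were chosen with results of these libraries known, so their levels and changes against control are given as a description, with no p-value. The members' transcripts were summed per gene, and all 10 passed the filter on low values (3 or more libraries with a value of 1 or above) that left 16789 genes.

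HK-2 is an established, immortalised line from human proximal tubule, grown in medium with serum. Cells received plain medium (control) or medium with DHA for 72 h. The doses were 60, 120 and 240 ug/ml, and the groups are named DHA 60, DHA 120 and DHA 240 after them. With 3 libraries in every group there were 12. No control with the carrier of the DHA was described, so each change against control includes any effect of a carrier. Separate cultures behind a group's libraries are not stated, and every p-value therefore reflects the scatter of these libraries alone, possibly technical.

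Amino acids enter cells through families of membrane carriers. SLC7A5, SLC7A6 and SLC7A11 are light chains that reach the cell surface bound to the heavy chain SLC3A2 and exchange one amino acid for another. SLC7A1 carries cationic amino acids, SLC1A4, SLC1A5, SLC38A1 and SLC38A2 bring in small neutral amino acids and glutamine with sodium, and SLC43A1 lets large neutral amino acids pass by facilitated diffusion. Several of these genes are known targets of ATF4, the transcription factor of the integrated stress response, which binds C/EBP-ATF response elements when amino acids run short. In the proximal tubule in vivo, filtered amino acids are taken up across the brush border mainly by other carriers, among them SLC6A19 and the pair SLC3A1 and SLC7A9.

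The deposited values were a normalized signal per transcript that keeps no read depth. Their totals ran from 1143850 to 1228979 in control and from 791808 to 969479 in DHA 240, and scaling them to equal totals raised the median change over all genes by 0.17, 0.31 and 0.36 (log2) in DHA 60, DHA 120 and DHA 240. In bulk RNA, fewer cells of a kind and less RNA per cell cannot be told apart. Among proximal tubule markers, SLC5A2, GGT1 and MME averaged at least 1, with SLC5A2 at 3.87 and MME at 6.3 in control. LRP2 and SLC22A6 were listed at 0 in every library, and CUBN, AQP1, SLC34A1 and ANPEP did not reach 1 in any. GGT1 ran from 155.2 to 190.8 in control and from 87.4 to 119.0 in DHA 240. All 4 keratin markers of epithelium and 3 of 5 kidney epithelium markers averaged at least 1. None of the 5 endothelial and 5 leukocyte markers reached that level. Among 5 fibroblast markers, COL1A1, DCN and LUM did, and the list summed to 246.9 to 342.3 in control and 38.6 to 65.9 in DHA 240. The part of these marker changes in the transporter values was not tested.

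Against control, 5 transporters were called higher in DHA 60 and 7 in both DHA 120 and DHA 240, where called means a limma adjusted p under 0.05 over all 16789 genes. The 5 were SLC7A5, SLC3A2, SLC7A1, SLC1A4 and SLC1A5, and SLC7A11 and SLC38A1 joined them at the higher doses. SLC38A2 was called lower in DHA 60 and DHA 120 and SLC7A6 in DHA 240, and both calls at the higher doses changed sign under another scaling, as given with each gene. The share of all genes called higher was 8.89% in DHA 60, 15.9% in DHA 120 and 19.7% in DHA 240, and the share called lower was 10%, 20.8% and 23.5%. Since the members were selected on these contrasts, nothing is read from their counts. The median log2 fold change of the 10 genes was 0.44, 0.70 and 0.80 at the 3 doses, and that of all tested genes was -0.03 at each.

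**Figure D1:**
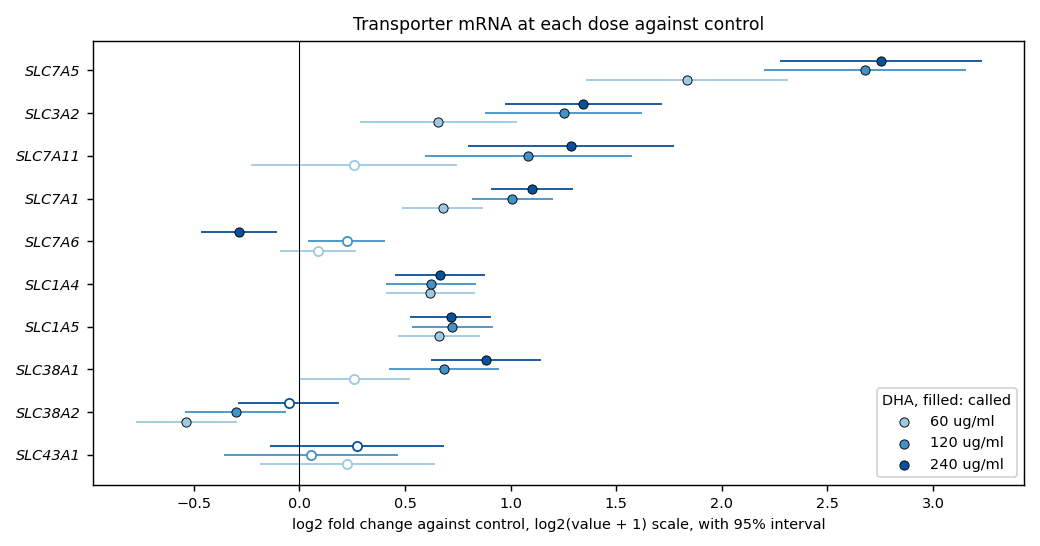
Log2 fold change of each transporter against control on the log2(value + 1) scale, with the 95% interval of the limma fit over 12 libraries; shades mark the DHA dose and filled points the genes called. SLC7A5 lies furthest to the right, at 1.84, 2.68 and 2.75. SLC38A2 in DHA 120 and SLC7A6 in DHA 240 lie left of 0 here but right of it, at 0.065 and 0.13, with equal library totals.

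SLC7A5, or LAT1, exchanges large neutral amino acids such as leucine, which the growth regulator mTORC1 senses. Its gene spans chr16:87830023-87869488 on the minus strand (GENCODE 29, GRCh38). The deposited signal was 22.5, 17.8 and 26.6 in the control libraries, 85.8, 53.8 and 115.6 in DHA 60, 143.5, 148.1 and 147.9 in DHA 120, and 146.3, 164.8 and 152.3 in DHA 240. Every DHA library lay above every control library, the DHA 60 libraries were widely spread, and those in DHA 120 and DHA 240 formed a plateau. The log2 fold change against control was 1.84 in DHA 60 (SE 0.22, 95% interval 1.36 to 2.31), 2.68 in DHA 120 (2.20 to 3.16) and 2.75 in DHA 240 (2.28 to 3.23).

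The 250 bases that precede the RefSeq start of SLC7A5 (GRCh38.p14, chr16:87869508-87869757, minus strand) are shown because this is the member with the largest change. They are 79.6% G or C, and the capitals mark an E-box, the CACGTG letters bound by MYC and related factors, that begins 130 bases before the start.
SLC7A5 upstream: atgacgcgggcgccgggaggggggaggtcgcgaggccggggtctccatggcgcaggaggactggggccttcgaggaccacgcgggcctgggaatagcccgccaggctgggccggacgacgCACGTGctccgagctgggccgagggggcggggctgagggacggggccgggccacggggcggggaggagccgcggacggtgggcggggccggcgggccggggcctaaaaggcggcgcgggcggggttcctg

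Both main transcripts of SLC7A5 were higher with DHA. SLC7A5-201, the full model of 4537 bases, averaged 12.4 in control and 82.6 in DHA 240, and SLC7A5-203, a protein-coding model of 3983 bases whose start lies at chr16 position 87863639, averaged 9.9 and 71.6. SLC7A5-203 held 44.2% of the gene's signal in control and 46.4% in DHA 240. The pseudogenes SLC7A5P1 and SLC7A5P2, which could take reads from SLC7A5, did not exceed 0.2 and 0.7 in any library.

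SLC3A2, the heavy chain also known as CD98, is the shared partner that carries the light chains to the surface (chr11:62856102-62888875, plus strand). Its signal was 45.8, 40.9 and 46.1 in control, 71.2, 51.2 and 95.2 in DHA 60, 99.5, 108.4 and 112.1 in DHA 120, and 110.0, 107.0 and 124.9 in DHA 240. All DHA libraries lay above control, and the order of the 3 libraries in DHA 60 was that of SLC7A5. Against control its log2 fold change was 0.66 (SE 0.17, 95% interval 0.29 to 1.03), 1.25 (0.88 to 1.62) and 1.34 (0.97 to 1.72) with rising dose. In DHA 60 the call was lost in 4 of 22 alternatives: with only the 2 groups in the fit (0.66), without control replicate 1 (0.68), without control replicate 2 (0.60) and without replicate 1 of DHA 60 (0.65). SLC3A2-201, a protein-coding transcript of 1904 bases, held 70.7% to 76.2% of the gene's signal as a group mean at each dose.

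The ratio of the SLC7A5 signal to the SLC3A2 signal was 0.491, 0.435 and 0.577 in the control libraries. It was 1.21, 1.05 and 1.21 in DHA 60, 1.44, 1.37 and 1.32 in DHA 120, and 1.33, 1.54 and 1.22 in DHA 240, so no DHA library reached down to control. SLC7A5 mRNA rose by a larger factor than the mRNA of its partner. A sum over genes weighs them alike only if the values are per transcript length, which no source used here states. The light chains summed (SLC7A5, SLC7A6, SLC7A7, SLC7A8, SLC7A10 and SLC7A11) gave a ratio to SLC3A2 of 1.52 ± 0.086 in control (mean ± SD, n = 3) and 1.87 ± 0.12, 1.90 ± 0.078 and 1.74 ± 0.17 at the 3 doses. That ratio lay above control in DHA 60 and DHA 120 and overlapped it in DHA 240, where the SLC7A6 sum was lowest. The sum includes SLC7A6-212, a retained-intron transcript described below, which averaged 13.6 in control and 2.63 in DHA 240. A ratio without it was not computed, so the overlap in DHA 240 cannot be read as a change of protein-coding light chain transcripts.

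**Figure D2:**
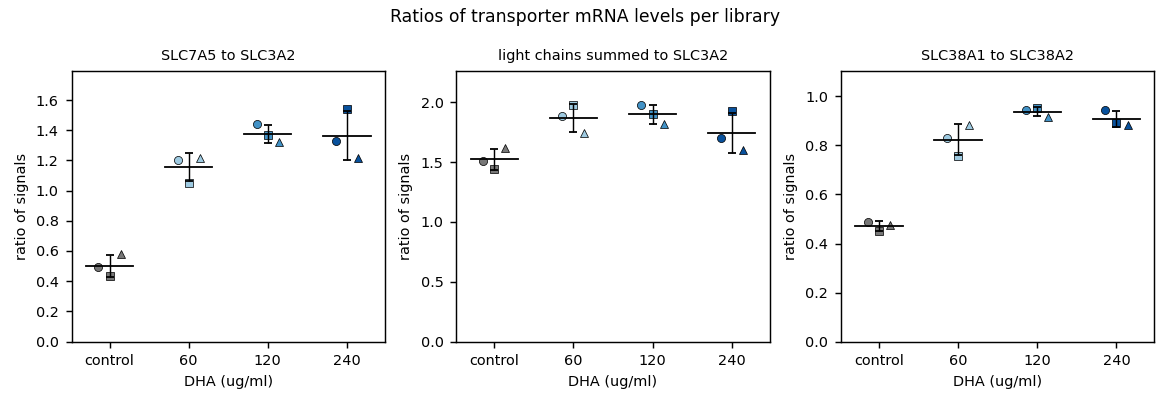
Ratio of deposited signals per library by DHA dose; circles, squares and triangles are replicates 1, 2 and 3, the line is the mean and the bar the SD (n = 3). The SLC7A5 to SLC3A2 ratio goes from a mean of 0.501 in control to 1.16, 1.38 and 1.36, and the SLC38A1 to SLC38A2 ratio from 0.471 to 0.824, 0.939 and 0.907.

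SLC7A11, or xCT, imports cystine in exchange for glutamate and so feeds glutathione synthesis (chr4:138164097-138242349, minus strand). Its signal was low, at 3.4, 2.5 and 4.3 in control and 4.1, 2.7 and 6.4 in DHA 60, and rose to 8.8, 8.0 and 7.8 in DHA 120 and 8.2, 10.9 and 9.8 in DHA 240. The DHA 60 libraries overlapped control and those of the other doses lay above it. The log2 fold change was 0.26 in DHA 60 (SE 0.22, 95% interval -0.23 to 0.75, not called), 1.08 in DHA 120 (0.59 to 1.57) and 1.29 in DHA 240 (0.80 to 1.77). At this level the added 1 understates the change. Without replicate 3 of DHA 60, SLC7A11 differed from control by 0.0021 at that dose.

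SLC7A6, or y+LAT2, exchanges cationic for neutral amino acids with sodium (chr16:68264516-68301823, plus strand). Its gene sum was 40.0, 36.3 and 39.7 in control, 41.6, 41.0 and 40.8 in DHA 60, 43.0, 47.4 and 45.5 in DHA 120, and 30.5, 28.7 and 35.6 in DHA 240. The libraries in DHA 60 and DHA 120 lay above control and those in DHA 240 below it. Against control the log2 fold change was 0.09 and 0.22 in DHA 60 and DHA 120 (SE 0.083, neither called) and -0.29 in DHA 240 (95% interval -0.47 to -0.11). In DHA 240 it was 0.13 with equal library totals and 0.082 over protein-coding transcripts, and the call was lost without control replicate 1 (-0.26) and without replicate 2 of DHA 240 (-0.22). In DHA 120 it was called higher in 7 of 22 alternatives, among them equal library totals (0.58) and a fit without replicate 2 or without replicate 3 of DHA 240 (0.22 in each).

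The lower SLC7A6 sum in DHA 240 came with 1 short transcript, SLC7A6-212, a retained-intron model of 658 bases (chr16:68294678-68297433). Its signal was 14.8, 10.5 and 15.6 in control, 15.0, 14.0 and 13.0 in DHA 60, 14.9, 19.5 and 14.8 in DHA 120, and 3.0, 0.0 and 4.9 in DHA 240. An exact 0 can be a failed estimate in a table without counts. It held 35.1% of the SLC7A6 signal in control and 7.87% in DHA 240, where its level lay below all other libraries.

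Without SLC7A6-212 the SLC7A6 sum was 25.2, 25.8 and 24.1 in control, 26.6, 27.0 and 27.8 in DHA 60, 28.1, 27.9 and 30.7 in DHA 120, and 27.5, 28.7 and 30.7 in DHA 240. Every DHA library then lay above every control library. SLC7A6-201, the main protein-coding transcript of 6251 bases, stayed between 15.6 and 19.9 in all 12 libraries. SLC7A6-212 lies within SLC7A6OS, a protein-coding gene on the opposite strand (chr16:68284503-68310946) that stayed between 14.0 and 17.2 in every library. The libraries mark strand with dUTP, per the labels' protocols, but the strand setting of the authors' quantification is not stated in any source used here, so reads of the 2 genes over this stretch cannot be told apart.

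**Figure D3:**
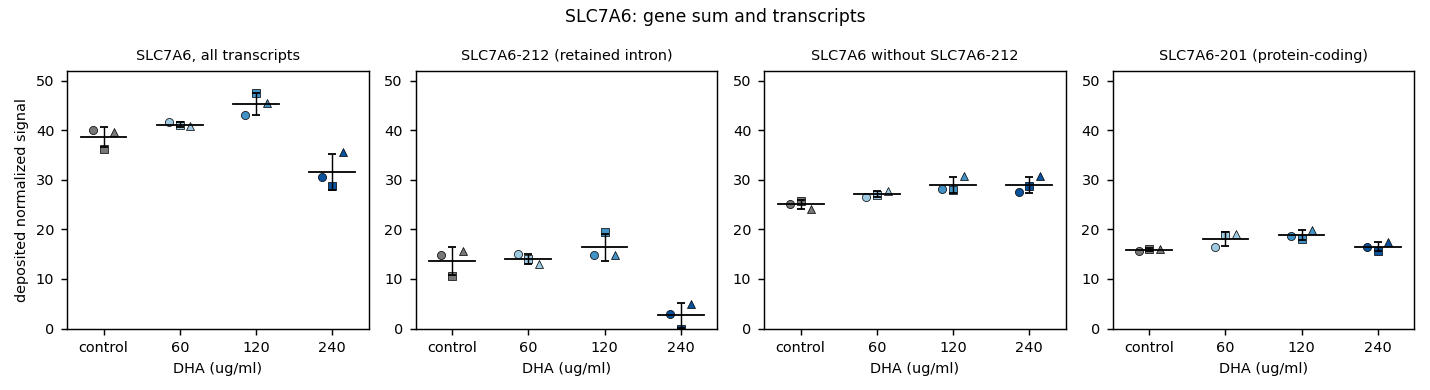
Deposited signal of the SLC7A6 gene sum, of SLC7A6-212, of the sum without it and of SLC7A6-201 by DHA dose; circles, squares and triangles are replicates 1, 2 and 3, the line is the mean and the bar the SD (n = 3). SLC7A6-212 drops to 3.0, 0.0 and 4.9 in DHA 240, and the sum without it lies above control at each dose.

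Transcript shares were compared between DHA 240 and control for 48330 transcripts of genes with at least 2 kept transcripts, 42 of them from the members. By limma's diffSplice 5.19% of all transcripts were called and 1 of the 42 was, SLC7A6-212 (log2 difference from the rest of its gene -2.64). On simulated data this test called unchanged transcripts more often than its threshold allows. A fit of each transcript against the rest of its gene, with a spread of its own, did not, and was added for that reason after the data were seen. The simulation drew each transcript independently and counted false calls only in genes without a planted change. Its result therefore does not cover the other transcripts of a changed gene. The added fit called 6.82% of all transcripts and 3 of the 42. These were again SLC7A6-212 (-2.56, SE 0.48), with SLC7A6-201 (0.64, SE 0.16) and SLC7A6-217 (0.86, SE 0.19) of the same gene. A fall of SLC7A6-212 by itself raises the other SLC7A6 transcripts in this fit, so the 3 calls cannot be taken as separate events. SLC7A6-201 averaged 15.9 in control and 16.5 in DHA 240. Leaving out single libraries of control or DHA 240, this fit kept the call of SLC7A6-212 each time, whereas SLC7A6-201 was called in none of those 6 fits and SLC7A6-217 was not called without control replicate 2 (0.75), control replicate 3 (0.86) or replicate 2 of DHA 240 (0.72). None of the transcripts of SLC7A5, SLC3A2, SLC1A4, SLC1A5, SLC38A1 or SLC38A2 was called by either test.

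SLC7A1, or CAT1, imports arginine, lysine and ornithine (chr13:29509410-29595688, minus strand). Its signal was 21.1, 21.9 and 23.0 in control, 37.3, 31.2 and 39.3 in DHA 60, 44.9, 45.9 and 44.8 in DHA 120, and 44.6, 50.8 and 49.7 in DHA 240. The control libraries were tightly grouped, and all DHA libraries lay above them. On the log2 scale it was above control by 0.68 (SE 0.088, 95% interval 0.49 to 0.87), 1.01 (0.81 to 1.20) and 1.10 (0.91 to 1.29) with rising dose. The transcript SLC7A1-201 held 98.6% of the signal in control and 99.1% in DHA 240.

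SLC1A5, or ASCT2, is a sodium-dependent exchanger of neutral amino acids and a main route of glutamine entry (chr19:46774883-46788594, minus strand). Its signal was 168.9, 160.6 and 166.9 in control, 289.1, 232.9 and 267.4 in DHA 60, 285.1, 281.5 and 255.7 in DHA 120, and 278.3, 281.1 and 258.7 in DHA 240. SLC1A4, or ASCT1, its relative for alanine, serine, cysteine and threonine (chr2:64988477-65023865, plus strand), was at 18.3, 18.7 and 22.3 in control and 34.2, 27.3 and 31.3 in DHA 60. In DHA 120 it was at 31.2, 32.5 and 28.9, and in DHA 240 at 32.7, 32.0 and 30.7. For both genes all DHA libraries lay above control and the DHA groups overlapped each other.

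The log2 fold changes of SLC1A5 were 0.66, 0.72 and 0.72 at the 3 doses (SE 0.088) and those of SLC1A4 were 0.62, 0.62 and 0.66 (SE 0.097). Between DHA 240 and DHA 60 SLC1A5 differed by 0.06 (95% interval -0.14 to 0.25) and SLC1A4 by 0.04 (-0.17 to 0.26). With equal library totals these differences were 0.28 and 0.26, neither called, so the level course depends on the scaling. The SLC1A5 to SLC1A4 ratio was 8.43 ± 0.88 in control and 8.51 ± 0.049, 8.88 ± 0.24 and 8.57 ± 0.19 at the doses (mean ± SD, n = 3), with the groups overlapping control. Of the SLC1A5 transcripts, SLC1A5-203 held 75.7% of the signal in control and 76.0% in DHA 240.

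SLC38A1 and SLC38A2, or SNAT1 and SNAT2, import glutamine and alanine with sodium, and SLC38A2 is known to respond to amino acid supply. Their genes lie close together on the minus strand, at chr12:46183063-46270017 and chr12:46358189-46372867. SLC38A1 was at 69.9, 63.7 and 78.3 in control, 76.4, 76.7 and 102.9 in DHA 60, 112.0, 109.6 and 119.9 in DHA 120, and 119.9, 140.2 and 133.1 in DHA 240. It overlapped control in DHA 60 and lay above it at the higher doses. The log2 fold change was 0.26 in DHA 60 (SE 0.12, not called), 0.68 in DHA 120 (95% interval 0.42 to 0.95) and 0.88 in DHA 240 (0.62 to 1.15). Without replicate 3 of DHA 60 the change at that dose was 0.12.

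SLC38A2 moved the other way at the lowest dose. Its signal was 143.1, 141.6 and 165.2 in control, 92.1, 101.4 and 116.3 in DHA 60, 118.8, 114.8 and 130.6 in DHA 120, and 127.1, 157.0 and 150.6 in DHA 240. The libraries in DHA 60 and DHA 120 lay below control and those in DHA 240 overlapped it. The log2 fold change was -0.54 in DHA 60 (SE 0.11, 95% interval -0.78 to -0.30), -0.30 in DHA 120 (-0.54 to -0.06) and -0.05 in DHA 240 (-0.29 to 0.19, not called). With equal library totals these values became -0.33 (not called), 0.065 (not called) and 0.38 (called higher). The call in DHA 120 was made in 10 of 22 alternatives. From DHA 60 to DHA 240, SLC38A2 was higher by 0.49 (0.25 to 0.72).

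Within each library the SLC38A1 to SLC38A2 ratio is unchanged by any factor applied to the whole library, such as scaling to equal totals. It was 0.489, 0.450 and 0.474 in control, 0.830, 0.756 and 0.885 in DHA 60, 0.943, 0.955 and 0.918 in DHA 120, and 0.943, 0.893 and 0.884 in DHA 240. No DHA library fell to the control range. The main protein-coding transcript SLC38A2-201 held 68.0% of the gene's signal in control and 71.0% in DHA 240, and the antisense gene SLC38A2-AS1 did not exceed 0.3.

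SLC43A1, or LAT3, was near the filter's floor (chr11:57484534-57515786, minus strand). Its signal was 1.2, 0.7 and 0.6 in control, 1.4, 1.0 and 1.0 in DHA 60, 1.1, 1.0 and 0.6 in DHA 120, and 1.5, 1.0 and 1.1 in DHA 240. All groups overlapped control. Its log2 fold change was 0.23, 0.06 and 0.27 (SE 0.19), called at no dose, and the 95% interval in DHA 240 ran from -0.14 to 0.68.

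**Figure D4:**
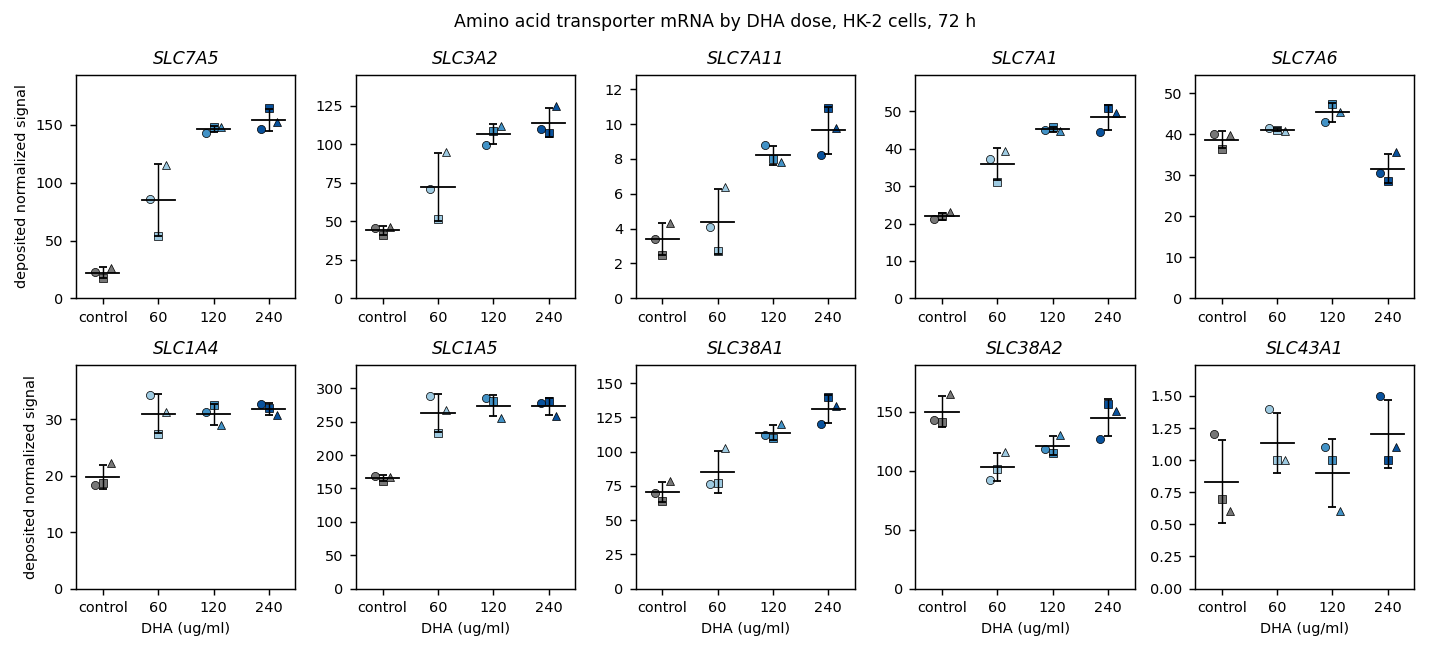
Deposited normalized signal of each transporter by DHA dose; circles, squares and triangles are replicates 1, 2 and 3, the line is the mean and the bar the SD (n = 3), and each panel has its own axis from 0. SLC7A5, SLC3A2, SLC7A1 and SLC7A11 climb to DHA 120, and SLC38A2 dips to 92.1 to 116.3 in DHA 60. SLC1A4 and SLC1A5 are level from DHA 60 on at the deposited scaling.

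The size of the step between doses differed among the genes. Between DHA 60 and DHA 120 the log2 difference was 0.84 for SLC7A5, 0.82 for SLC7A11, 0.59 for SLC3A2, 0.42 for SLC38A1 and 0.33 for SLC7A1, and it was 0.00 for SLC1A4 and 0.06 for SLC1A5. None of the 10 was called there, beside 0.536% of all genes called higher and 1.61% called lower. With equal library totals the SLC1A4 and SLC1A5 differences were 0.16 and 0.22, neither called. Replicate 3 of DHA 60 was the highest of its group for SLC7A5, SLC3A2, SLC7A11, SLC7A1, SLC38A1 and SLC38A2. Without it, SLC7A5, SLC3A2, SLC7A11, SLC7A1 and SLC38A1 were called higher in DHA 120 than in DHA 60, with differences of 1.10, 0.81, 1.08, 0.40 and 0.57. Leaving out the highest library of DHA 60 raises these differences by itself, so nothing is read from the 5 calls. With any other library left out, 0 members were called.

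Between DHA 120 and DHA 240 limma called 0 of the 16789 genes, or 0% in either direction, while 1331 had an unadjusted p under 0.05. The widest member difference was that of SLC7A6, at -0.51 (95% interval -0.69 to -0.33). SLC7A6-212 averaged 16.4 in DHA 120 and 2.63 in DHA 240, and the SLC7A6 sum without it 28.9 and 28.97. Between DHA 60 and DHA 240, 6 members were called higher (SLC7A5 0.92, SLC3A2 0.69, SLC7A11 1.03, SLC7A1 0.42, SLC38A1 0.62 and SLC38A2 0.49), beside 11.7% of all genes. SLC7A6 was called lower by the same contrast (-0.38), beside 13.1% of all genes, and not called with equal library totals (-0.16) or over protein-coding transcripts (-0.05). With only the 2 groups in the fit SLC7A5 and SLC3A2 were not called, and SLC3A2 was not called without replicate 3 of DHA 240 (0.62).

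Levels can be ranked between genes only if the values are per transcript length, as TPM values are, which no source used here states and the totals do not settle. If they are, the order in control was SLC1A5 (mean 165.5), SLC38A2 (150.0), SLC38A1 (70.6), SLC3A2 (44.3), SLC7A6 (38.7), SLC7A5 (22.3), SLC7A1 (22.0), SLC1A4 (19.8), SLC7A11 (3.4) and SLC43A1 (0.83). The ranges of SLC1A5 and SLC38A2 overlapped, as did those of SLC7A5, SLC7A1 and SLC1A4 as neighbours. In DHA 240 SLC1A5 (272.7) was again highest, and SLC7A5 (154.5) had moved from sixth to the second place, with a range that overlapped that of SLC38A2 (144.9). SLC38A2 in turn overlapped SLC38A1 (131.1), and SLC38A1 overlapped SLC3A2 (114.0).

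Over the 12 libraries, which share doses and a trend in total signal, the highest Pearson r of log2(value + 1) with SLC7A5 among tested genes outside the members was that of SOX9 (0.993), TCOF1 (0.991), CARS1 (0.991), JCAD (0.990) and NIBAN2 (0.988). For SLC3A2 it was that of ANGPTL4 (0.985), PTPRJ (0.983), NOP14 (0.983), DDIT4 (0.982) and NSUN2 (0.981). Between members r was 0.970 for SLC7A5 with SLC3A2, 0.991 for SLC7A5 with SLC7A1, 0.974 for SLC1A4 with SLC1A5 and 0.972 for SLC7A11 with SLC38A1. It was -0.24 for SLC7A5 with SLC38A2 and -0.07 for SLC7A5 with SLC7A6. These values describe likeness over 4 doses and carry no test.

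The windows from 250 bases before to 50 after each RefSeq start (GRCh38.p14) were searched on both strands for TGATGNAA, the core of the C/EBP-ATF response element. RefSeq windows were read for 9 members, all but SLC7A11. The letters were present in 5 of these 9 genes and in 4.46% of 27305 genes with a window. By window, they were in 5 of the members' 16 and in 3.62% of all 35116. A gene with more windows has more places for a match. They are shown with 30 bases for the members whose window lies at the start of the main transcript, SLC7A1 (chr13:29595663-29595692, minus strand) and SLC1A4 (chr2:64989381-64989410, plus strand), and for SLC38A1 (chr12:46266502-46266531, minus strand), SLC1A5 (chr19:46784893-46784922, minus strand) and SLC3A2 (chr11:62881719-62881748, plus strand). Capitals mark the core, which reads on the opposite strand in SLC1A4 and SLC3A2.
SLC7A1: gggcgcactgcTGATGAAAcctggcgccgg
SLC1A4: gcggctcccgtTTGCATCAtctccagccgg
SLC38A1: tcagacccgaaTGATGAAAagggatcagct
SLC1A5: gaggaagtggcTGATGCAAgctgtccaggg
SLC3A2: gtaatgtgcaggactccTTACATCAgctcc
The windows of the last 3 belong to other RefSeq starts, 2496, 3780 and 827 bases from the start of the main transcript. CACGTG was found in 3 of 9 members (SLC7A5, SLC1A5 and SLC43A1) and 8.78% of genes. TGACNNNGC, the core of the antioxidant response element read by NRF2, was found in 5 of 9 (SLC7A5, SLC3A2, SLC7A1, SLC7A6 and SLC1A5) and 16.1% of genes. TGANTCA, the AP-1 site, was found in SLC3A2, where it overlaps TGACNNNGC, and in SLC38A1, beside 9.37% of genes. For these further motifs too, the SLC3A2 and SLC38A1 matches lay in the windows of those other starts. The CACGTG and TGACNNNGC matches of SLC1A5 lay in the window of a start 1301 bases from that of its main transcript. A match describes letters in a window and shows no binding.

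This gene list and those that follow were chosen with earlier results of these data known. Their counts and adjusted p-values are therefore descriptions and no independent support for the members. Beside each list stand the shares of all genes, 8.89%, 15.9% and 19.7% higher and 10%, 20.8% and 23.5% lower with rising dose. With equal library totals 7226 of 16707 genes were called higher and 1508 lower in DHA 240. Among 29 genes of ATF4 and the amino acid response, 12, 18 and 19 rose with rising dose (limma, adjusted p under 0.05). In the same order 1, 0 and 1 fell, and the medians were 0.25, 0.43 and 0.72. In DHA 240 DDIT4, an inhibitor of mTORC1, rose by 2.14 (SE 0.28, limma adjusted p = 0.000133), CHAC1, which degrades glutathione, by 2.00, ASNS, asparagine synthetase, by 1.44, and CTH, of cysteine synthesis, by 1.24. ASNS was at 55.9, 47.7 and 56.6 in control and 160.0, 143.2 and 137.4 in DHA 240. ATF4 mRNA itself was at 13.1, 11.3 and 10.9 in control and 13.7, 14.0 and 11.6 in DHA 240. Its log2 fold change was 0.14 (limma adjusted p = 0.476). Transcripts without a match in GENCODE 29 were left out, so this sum can lack a main ATF4 transcript. VLDLR fell by 1.03 from a mean of 1.53, a call lost with equal library totals (-0.86), and the DDIT4 call in DHA 60 was lost without replicate 3 of that group (0.51). With equal totals 24 of the 29 were called higher and 0 lower in DHA 240.

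Of 32 other amino acid transporters of the plasma membrane, 13 were tested, of which 2, 4 and 4 rose and 1, 1 and 2 fell with rising dose. SLC6A9, the glycine transporter GLYT1, was at 3.1, 1.7 and 3.2 in control and 10.2, 15.2 and 12.4 in DHA 240 (log2 fold change 1.90, SE 0.18, limma adjusted p = 2.03e-05). SLC38A5, a relative of SLC38A1, was at 11.6, 11.5 and 9.7 in control and 34.5, 30.6 and 35.5 in DHA 240 (1.53, SE 0.23, limma adjusted p = 0.000288). SLC6A15 rose by 0.70 and SLC7A2, a relative of SLC7A1, by 0.55. The glutamate transporters SLC1A3 (-0.76) and SLC1A1 (-0.53) fell, and both calls were lost with equal library totals.

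The carriers typical of the proximal tubule brush border were at 0 or low. SLC6A19 was listed at 0 in all 12 libraries, SLC7A9 did not exceed 0.4, and its partner SLC3A1, which averaged 1.4 in control and 0.80 in DHA 240, was not called. SLC6A20, which carries proline there, averaged 3.63 in control and 2.6 in DHA 240 and was not called (log2 fold change -0.32, limma adjusted p = 0.291). SLC1A1, also a brush border carrier, averaged 3.57 and 2.17. The remaining partners of SLC3A2 were also low: SLC7A8 did not exceed 0.7, and SLC7A7 averaged 2.7 in control and 1.83 in DHA 240 and was not called (log2 fold change -0.37, limma adjusted p = 0.214).

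**Figure D5:**
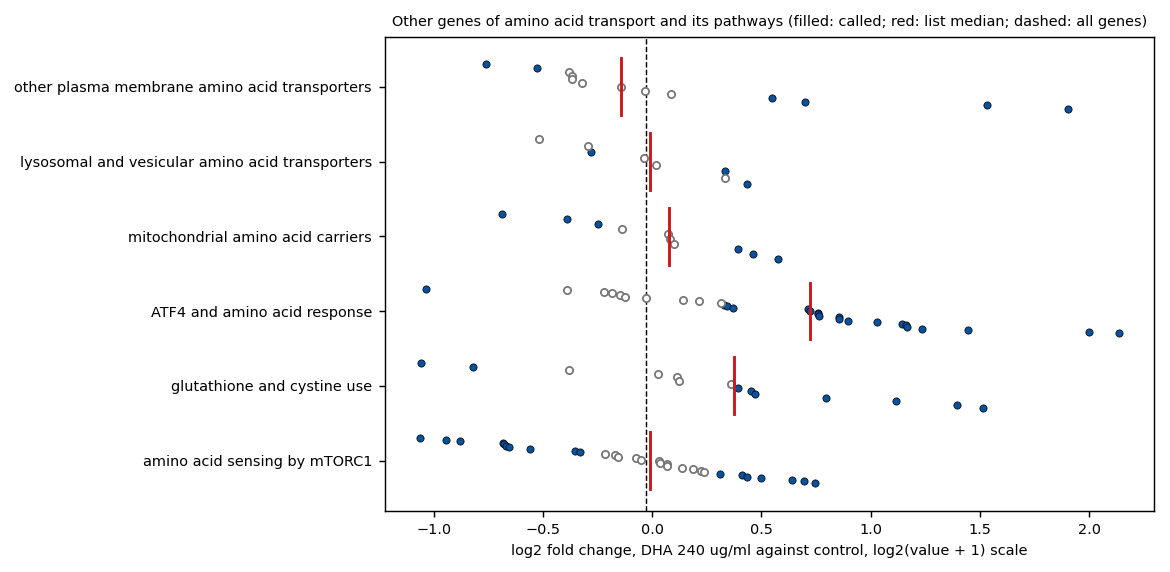
Log2 fold change in DHA 240 against control, on the log2(value + 1) scale, of the tested genes in 6 lists; filled points were called, open points were not, the red line is the list's median and the dashed line that of all genes. The ATF4 list has its median at 0.72 and the other plasma membrane transporters at -0.14, beside -0.03 for all genes; with equal library totals that of the transporters was 0.21.

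Inside the cell, 8 lysosomal and vesicular amino acid transporters were tested, of which 2 rose and 1 fell in DHA 240 (median -0.01). Beside this list and the mitochondrial one, 19.7% of all genes were called higher and 23.5% lower, so nothing is read from the counts. MFSD12, which brings cysteine into lysosomes, rose by 0.44 (limma adjusted p = 0.000875) and SLC66A1, which exports cationic amino acids from them, by 0.33, and SLC38A9 fell by 0.28 but was at 0.13 with equal library totals. Of 10 mitochondrial carriers tested (median 0.08), 3 rose (SLC25A22 for glutamate by 0.58, SFXN1 for serine by 0.46 and SLC25A15 for ornithine by 0.39) and 3 fell (SLC25A29 by 0.69, SLC25A12 by 0.39 and SFXN3 by 0.25). With equal library totals none of those 3 lower calls was made, 6 carriers were higher (median 0.49), and 4 lysosomal transporters were higher and 0 lower (median 0.36).

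Genes that use cystine or guard against oxidation moved in both directions in DHA 240, with 7 of 14 higher and 2 lower and a median of 0.38, against 11 and 2 and a median of 0.80 with equal library totals. TXNRD1 (1.51, SE 0.13, limma adjusted p = 1.42e-05), HMOX1 (1.40), GCLM, the modifier subunit of glutathione synthesis (1.12), and SRXN1 (0.79) rose. GPX4, the lipid peroxidase that uses glutathione, fell by 1.06 and GGT1, which cleaves extracellular glutathione, by 0.82. GGT1 is also among the proximal tubule markers above.

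Of 20 tested genes of glutamine, glutamate, serine and branched-chain metabolism, 6 rose and 5 fell in DHA 240 (median -0.08). Of all genes, 19.7% were called higher and 23.5% lower, so nothing is read from these counts. ODC1, of polyamine synthesis, rose by 1.44 (limma adjusted p = 6.10e-05), PPAT and CAD, which use glutamine for purines and pyrimidines, by 0.96 and 0.69, and BCAT1 by 0.92. SDS, ASS1, BCKDHA and PRODH fell by 1.18, 0.82, 0.69 and 0.69, and with equal library totals the calls of ASS1, BCKDHA and PRODH were lost. That scaling gave 11 higher and 1 lower, with a median of 0.33.

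Of 30 tested genes by which mTORC1 senses amino acids, 7 rose and 10 fell in DHA 240 (median -0.01), against 17 and 3 with equal library totals. In the main fit 19.7% of all genes were called higher and 23.5% lower, so nothing is read from the counts. FNIP2 (0.74), LARS1, the cytosolic leucyl-tRNA synthetase (0.70), RPTOR (0.64) and SEH1L (0.50) were the highest of those that rose. LAMTOR5 (-1.06) and LAMTOR2 (-0.88) of the Ragulator scaffold and the arginine sensor genes CASTOR2 (-0.94) and CASTOR1 (-0.68) were the lowest of those that fell, and the CASTOR1 call was lost with equal library totals (-0.31).

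Among known regulators of the transporters, MYC rose in DHA 240 from 176.0, 176.6 and 164.8 in control to 275.3, 296.2 and 276.8 (log2 fold change 0.71, SE 0.089, limma adjusted p = 0.000113), HIF1A by 0.81, WWTR1 by 0.60 and E2F1 by 0.59. NFE2L2, which encodes NRF2, was not called (-0.10, limma adjusted p = 0.275).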

How the data were processed

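Poly(A) RNA of 12 HK-2 libraries was sequenced in pairs on a DNBSEQ instrument, per the labels' protocols. The deposited table gives 1 value per transcript and library, to 1 decimal; the authors' unit is not named, and from the library totals the values were treated as a normalized signal. The submitters' processing notes name GRCh38.p14, while no aligner, quantifier, strand setting or annotation release is given in the sources used here. Depth is unknown, so no counting interval is given. Transcripts were matched to GENCODE 29 (75.7% of 267165, carrying 93.8% to 94.7% of the signal) and summed per gene, so a gene can lack a main transcript.

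The test was limma-trend on log2(signal + 1) with limma 3.58.1 in R 4.3.3, over 4 group means and 12 libraries, two-sided, with Benjamini-Hochberg adjustment over 16789 genes and calls at 0.05. A fold change on this scale understates that of low genes. The design allowed for counts, which the table does not hold. The fits were tested on simulated data. There diffSplice, planned for transcript shares, made too many false calls in genes without a planted change, and the per-transcript fit beside it did not. The members and gene lists were chosen with earlier results of these data known. Named list genes are the up to 4 highest and 4 lowest called in DHA 240, plus genes the design needed; transcripts shown hold at least 10% of a gene's signal, except SLC7A6-217, named after its value was seen. Alternatives were other pseudocounts, filters, scalings and fits, and each library left out. Results of a few genes of the marker and regulator lists, and the totals of those 2 lists, are not reported here.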

Additional observations from a re-analysis of the deposited data

How the results depend on the processing

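SLC7A5, SLC7A1, SLC1A4 and SLC1A5 were called higher at all 3 doses in each of 22 alternatives, and SLC3A2, SLC7A11 and SLC38A1 in DHA 120 and DHA 240 in each. With equal library totals SLC38A2 in DHA 120 reversed to 0.065 and SLC7A6 in DHA 240 to 0.13; over protein-coding transcripts SLC7A6 reversed to 0.082. Equal totals also turned the split of all calls in DHA 240 from 3306 higher and 3938 lower to 7226 and 1508, in DHA 120 from 2670 and 3485 to 6097 and 1360, and in DHA 60 from 1492 and 1685 to 2783 and 649. The cause of the falling totals was not tested. Read depth is unknown, which limits SLC43A1, SLC7A11 and other low genes most.

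Between DHA 60 and DHA 120 the members called were 0, against 3 with a filter of 5, 4 over protein-coding transcripts, and 0 to 5 with 1 library left out, the 5 without replicate 3 of DHA 60. The genes called in DHA 60 against control were 3177, and 1888 to 3435 with 1 library left out (1888 without control replicate 1, 1935 without replicate 1 of DHA 60). Transcripts called by diffSplice were 2508, against 1619 with a pseudocount of 0.1, 1645 with a filter of 5 and 1458 to 2866 with 1 library left out. The lowest were 1458, 1538, 1609 and 1628, without replicate 2 of DHA 240, control replicate 1, replicate 3 of DHA 240 and control replicate 2. Member transcripts called were 1, against 2 with a filter of 5, 3 with each transcript set against the rest of its gene, and 1 to 2 with 1 library left out (2, adding SLC3A2-209, without control replicate 1 or replicate 1 of DHA 240).

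The main fit did not pair libraries by replicate number. Over 18 same-numbered pairs the correlation of deviations ran from -0.0247 to 0.236 (median 0.0568), with 6 over 0.1. Of the 12 libraries, 9 were closest to their own number, so libraries of a number may share an effect that the main fit ignores. A fit with a replicate block called 5 members between DHA 60 and DHA 120 in place of 0, and moved no other count of members, genes or transcripts by over 1.5 times. Against control it called 3983, 6926 and 7901 genes with rising dose, beside 3177, 6155 and 7244 without the block.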
